A study of Mus musculus with 18 samples.

Results

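Kidney transcripts of 6 genes that make, move or break down arginine and creatine were followed, namely Ass1, Asl, Gatm, Slc6a8, Arg2 and Oat. They were chosen by gene symbol from a table of 19545 entries, each symbol stood on 1 entry, and all 6 passed the filter on low values that left 12682 genes for testing. The values came from RNA sequencing of 18 kidney samples of ICR mice, an outbred strain, aged 10 weeks, with 3 samples in each of 6 groups. A control group and a group given AOS at 10 mg/kg received no STZ. The other 4 groups all received STZ, short for streptozotocin, which kills the insulin-making cells of the pancreas and serves to model diabetes. One of these had STZ alone (STZ), one had STZ with AOS at 10 mg/kg (STZ+AOS), and the remaining pair had STZ and a transfer (FMT, the usual abbreviation of faecal microbiota transplantation) labelled with AOS 10 mg/kg (STZ+AOS-FMT) or with control (STZ+control-FMT). AOS is not spelled out in the labels, and neither the STZ schedule, the gut flora the recipients still held at transfer nor whether each sample was a separate mouse is given in the sources used here. The p-values therefore rest on the scatter among samples of a group, which may be technical.

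In the kidney, cells of the proximal tubule take up citrulline released by the gut and turn it into arginine for the rest of the body. ASS1 (argininosuccinate synthase) joins citrulline to aspartate, and ASL (argininosuccinate lyase) splits the product into arginine and fumarate. GATM, a mitochondrial amidinotransferase, uses part of that arginine and glycine to make guanidinoacetate and ornithine, and the liver methylates guanidinoacetate to creatine. SLC6A8 brings creatine into cells, ARG2 (mitochondrial arginase) splits arginine into ornithine and urea, and OAT (ornithine aminotransferase) passes ornithine on towards glutamate and proline.

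A RefSeq promoter (build GRCm38.p6) was matched for 3 of the 6 genes, and the 250 bases upstream of each RefSeq start are shown because Ass1 and Gatm were called together below and Oat was read beside them. The Gatm window lies at chr2:122611278-122611527 on the minus strand, the Ass1 window at chr2:31470020-31470269 on the plus strand and the Oat window at chr7:132576399-132576648 on the minus strand. GENCODE places the starts of Gatm and Ass1 further upstream, so the 3′ ends of those windows lie inside its gene bounds. Capitals mark matches to the CCAAT box (CCAAT, or ATTGG on the other strand) in Gatm and Oat, and to the GC box (GGGCGG) and the E-box (CACGTG) in Ass1.
Gatm: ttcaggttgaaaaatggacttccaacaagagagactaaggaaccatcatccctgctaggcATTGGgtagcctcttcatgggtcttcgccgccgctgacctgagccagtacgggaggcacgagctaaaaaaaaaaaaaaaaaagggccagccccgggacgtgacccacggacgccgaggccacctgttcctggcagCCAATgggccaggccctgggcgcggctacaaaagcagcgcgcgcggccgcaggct
Ass1: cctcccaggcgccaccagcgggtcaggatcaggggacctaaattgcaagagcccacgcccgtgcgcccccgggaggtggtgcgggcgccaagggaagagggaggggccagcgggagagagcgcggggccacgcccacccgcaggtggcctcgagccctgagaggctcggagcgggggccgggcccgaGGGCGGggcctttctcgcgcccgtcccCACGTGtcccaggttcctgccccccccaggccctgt
Oat: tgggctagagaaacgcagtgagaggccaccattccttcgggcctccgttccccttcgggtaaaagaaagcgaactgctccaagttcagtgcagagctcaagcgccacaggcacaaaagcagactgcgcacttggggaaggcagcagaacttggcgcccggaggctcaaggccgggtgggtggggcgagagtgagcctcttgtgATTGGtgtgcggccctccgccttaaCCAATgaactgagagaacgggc

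Counting the base before the RefSeq start as -1, the Gatm window held CCAAT from -55 to -51 and its reverse complement from -190 to -186. The Oat window held CCAAT from -22 to -18 and the reverse complement from -47 to -43. The Ass1 window held neither, but held GGGCGG from -63 to -58 and CACGTG from -36 to -31. Both of these Ass1 matches lie inside the gene bounds that GENCODE gives. Searched on both strands in windows of the same length over 32851 promoters, CCAAT was found in 33.8%, GGGCGG in 32.7% and CACGTG in 6.02%. None of the 3 windows held the steroid receptor half-site AGAACA (16.1% of promoters), TATAAA (12.4%), TGACGTCA (1.55%) or GTTAAT (6.43%), and no match says only that these letters are not in these windows. No matches overlapped. GC content was 59.2% for Gatm, 75.6% for Ass1 and 60.0% for Oat.

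Values are in FPKM (fragments or reads scaled for transcript length and library size), so levels can be set beside each other between genes. Over the 18 libraries, Ass1 had the highest mean level of the 6 genes at 1777 FPKM, and ranked 20 of 19542 symbols. Gatm followed at 484 FPKM, Asl at 159.7, Slc6a8 at 90.4, Oat at 74.9 and Arg2 at 14.1. The level of Ass1 was between 5.75 and 19.8 times that of Asl, the enzyme of the next step. Arg2 spanned the widest range, its highest library being 13.7 times its lowest, while the other 5 spanned 1.72 to 3.28 times.

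Facts of the libraries bear on all results. Between 11407 and 12607 genes per library reached 1 FPKM, and read depth is unknown. Kap, an androgen-responsive transcript of the proximal tubule, stood at 144521 FPKM or higher in 6 libraries (controls 1 and 2, all 3 AOS and STZ 1) and at 85880 FPKM or lower in the other 12, so that control 3 (15798 FPKM) and STZ 1 (144830 FPKM) stood apart from their groups. Cyp11b1, an adrenal enzyme that makes corticosterone, was above 100 FPKM in control 3, STZ+AOS 1 and STZ+AOS 3, at 14.3 in STZ+AOS 2 and at 5.13 or lower elsewhere. All 14 proximal tubule markers were detected in every group, as in labelled kidney tissue. The 4 spermatid markers summed to 18.2 to 74.3 FPKM in the control and STZ libraries, to at most 0.18 in STZ+AOS, and were all at 0 in AOS and in both transfer groups. Their part in comparisons that use control or STZ was not tested. In whole kidney RNA, fewer cells of a type and less RNA per cell cannot be told apart.

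Ass1 (ENSMUSG00000076441.9, mm10 chr2:31470207-31520672, plus strand) was read at 1815, 2022 and 1117 FPKM in the 3 controls and at 2254, 2408 and 2179 FPKM with AOS alone. It was read at 2314, 1320.2 and 1578 FPKM with STZ and at 1054, 1097 and 1211 FPKM with STZ+AOS. The transfer groups gave 1929, 2055 and 2081 FPKM with STZ+AOS-FMT and 1705, 2344 and 1504 FPKM with STZ+control-FMT. STZ+AOS had the lowest mean (1121 ± 81.0, SD, n = 3), and AOS had the highest mean (2281 ± 117). All 3 STZ+AOS libraries lay below every AOS, STZ and transfer library and overlapped only the controls, through control 3. Between neighbours in the order of means, AOS and STZ+AOS-FMT (2022 ± 81.3) did not overlap, and every other neighbouring pair did.

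Asl (ENSMUSG00000025533.15, chr5:130011258-130029247, minus strand) was read at 119, 104 and 182 FPKM in the controls, at 114, 139 and 114 FPKM with AOS and at 132.5, 147 and 199.95 FPKM with STZ. STZ+AOS gave 149, 129.7 and 211 FPKM, STZ+AOS-FMT gave 169, 186 and 218 FPKM, and STZ+control-FMT gave 198, 195 and 168 FPKM. The 6 transfer libraries lay above all 3 AOS libraries, and all neighbouring groups in the order of means overlapped. The Ass1 to Asl ratio was 17.3 to 19.8 with AOS, 5.75 to 8.46 with STZ+AOS and 8.60 to 12.02 in the 6 transfer libraries, ranges that did not overlap. STZ+AOS 2 (8.46) and STZ+control-FMT 1 (8.60) nearly met. How many other pairs of genes separate these groups was not counted. The ratio was 15.3, 19.4 and 6.14 in the controls and 17.5, 8.99 and 7.89 with STZ, where control 3 and STZ 1 were again the ones apart.

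Gatm (ENSMUSG00000027199.14, chr2:122594467-122611303, minus strand) was read at 351, 398 and 467 FPKM in the controls and at 410.0, 375 and 434 FPKM with AOS. It was read at 417, 807 and 397 FPKM with STZ and at 314, 446 and 246 FPKM with STZ+AOS. The transfer groups gave 582, 659 and 649 FPKM (STZ+AOS-FMT) and 618, 591 and 551 FPKM (STZ+control-FMT). The 6 transfer libraries lay above every other library except STZ 2, and the 2 lowest values of all 18 were STZ+AOS 1 and 3. All neighbouring groups in the order of means overlapped.

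Slc6a8 (ENSMUSG00000019558.14, chrX:73673150-73682502, plus strand) was read at 67.3, 66.8 and 100.3 FPKM in the controls, at 65.6, 73.0 and 70.4 FPKM with AOS and at 69.5, 99.0 and 103 FPKM with STZ. STZ+AOS gave 113, 92.5 and 106 FPKM, STZ+AOS-FMT gave 99.9, 96.6 and 108 FPKM, and STZ+control-FMT gave 104, 97.4 and 95.4 FPKM. The creatine transporter split the libraries as Kap did. It was at 73.03 FPKM or lower in the 6 libraries with Kap at 144521 FPKM or higher and at 92.49 FPKM or higher in the other 12, with no value between. Control 3 thus lay with the high libraries and STZ 1 with the low ones, against the other members of their groups. How many of all genes split in this way was not counted. Over the 18 libraries, the Pearson correlation of log2(FPKM + 1) with Kap was -0.77 for Slc6a8. It was -0.93 for Oat, 0.78 for Ass1, -0.70 for Arg2, -0.48 for Asl and 0.15 for Gatm. With Cyp11b1 the correlation was -0.85 for Ass1, 0.86 for Arg2, 0.74 for Oat, 0.51 for Slc6a8, -0.50 for Gatm and 0.24 for Asl. With the proximal tubule marker Slc22a6 it was 0.88 for Ass1, -0.92 for Arg2, -0.79 for Oat, -0.59 for Slc6a8, 0.48 for Gatm and -0.33 for Asl. What lies behind these correlations was not tested. All neighbouring groups in the order of means overlapped.

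Arg2 (ENSMUSG00000021125.6, chr12:79130777-79156301, plus strand) was read at 10.04, 6.59 and 22.6 FPKM in the controls, at 11.5, 5.75 and 4.46 FPKM with AOS and at 6.30, 14.2 and 23.55 FPKM with STZ. STZ+AOS gave 29.4, 22.8 and 49.0 FPKM, STZ+AOS-FMT gave 8.17, 3.59 and 5.95 FPKM, and STZ+control-FMT gave 7.81, 7.33 and 14.4 FPKM. STZ+AOS had the highest mean (33.7 ± 13.6 FPKM) and lay above every AOS and transfer library, with an overlap at its lowest library with STZ 3. STZ+AOS-FMT had the lowest mean (5.90 ± 2.29 FPKM). All neighbouring groups in the order of means overlapped.

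Oat (ENSMUSG00000030934.9, chr7:132557478-132576398, minus strand) was read at 56.6, 61.1 and 122 FPKM in the controls, at 61.1, 58.8 and 53.35 FPKM with AOS and at 52.3, 63.8 and 109.6 FPKM with STZ. STZ+AOS gave 117, 84.4 and 84.0 FPKM, STZ+AOS-FMT gave 89.05, 59.8 and 83.1 FPKM, and STZ+control-FMT gave 61.4, 69.2 and 62.5 FPKM. The 3 highest libraries, control 3, STZ+AOS 1 and STZ 3, were also the 3 with the lowest Kap. The lowest mean was with AOS (57.7 ± 3.98 FPKM), which did not overlap its neighbour in the order, STZ+control-FMT (64.4 ± 4.22 FPKM). Every other neighbouring pair overlapped.

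**Figure D1:**
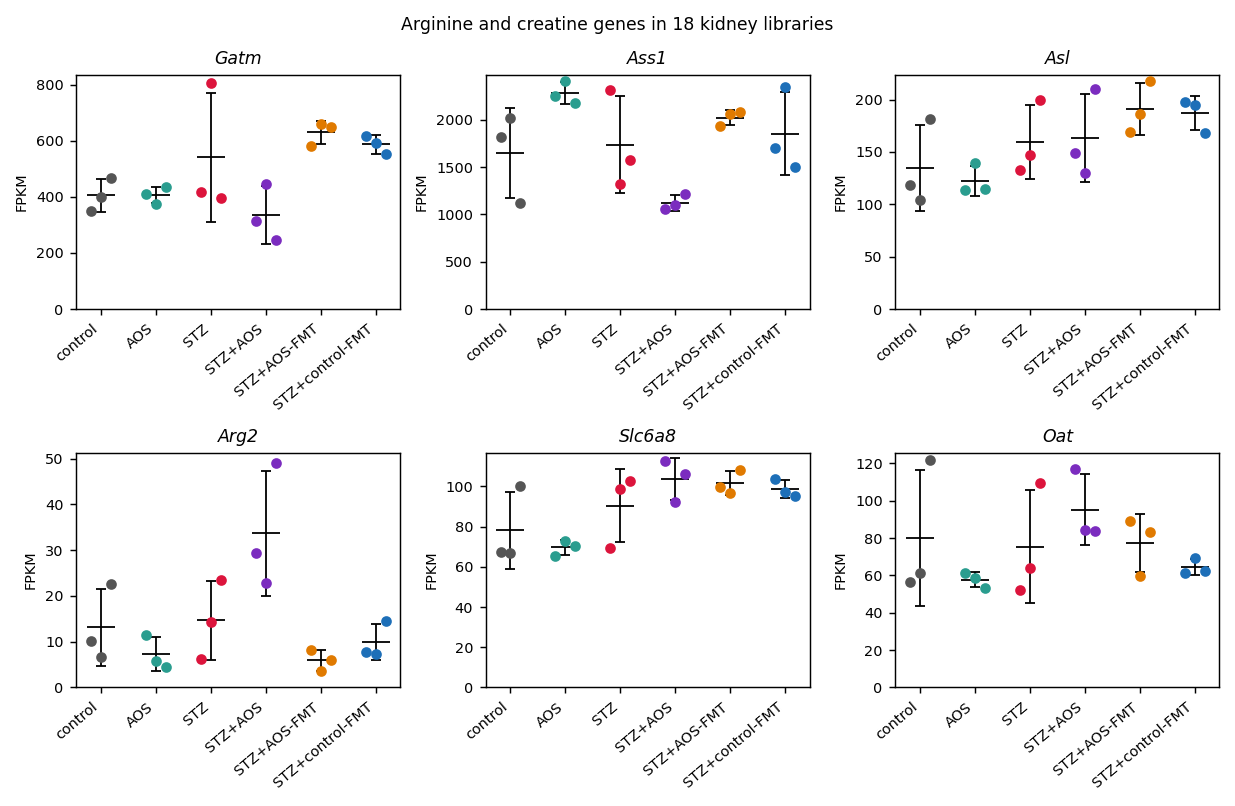
Level of each of the 6 genes in FPKM (vertical axis, linear, from 0) by group (horizontal axis). Coloured points are the 3 libraries of a group in the order of their replicate numbers, and black bars are the mean ± SD. Ass1 lies between 1054 and 1211 FPKM in STZ+AOS, where Arg2 lies between 22.8 and 49.0 FPKM. Control 3 and STZ 1 stand apart from their groups in Slc6a8.

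**Figure D2:**
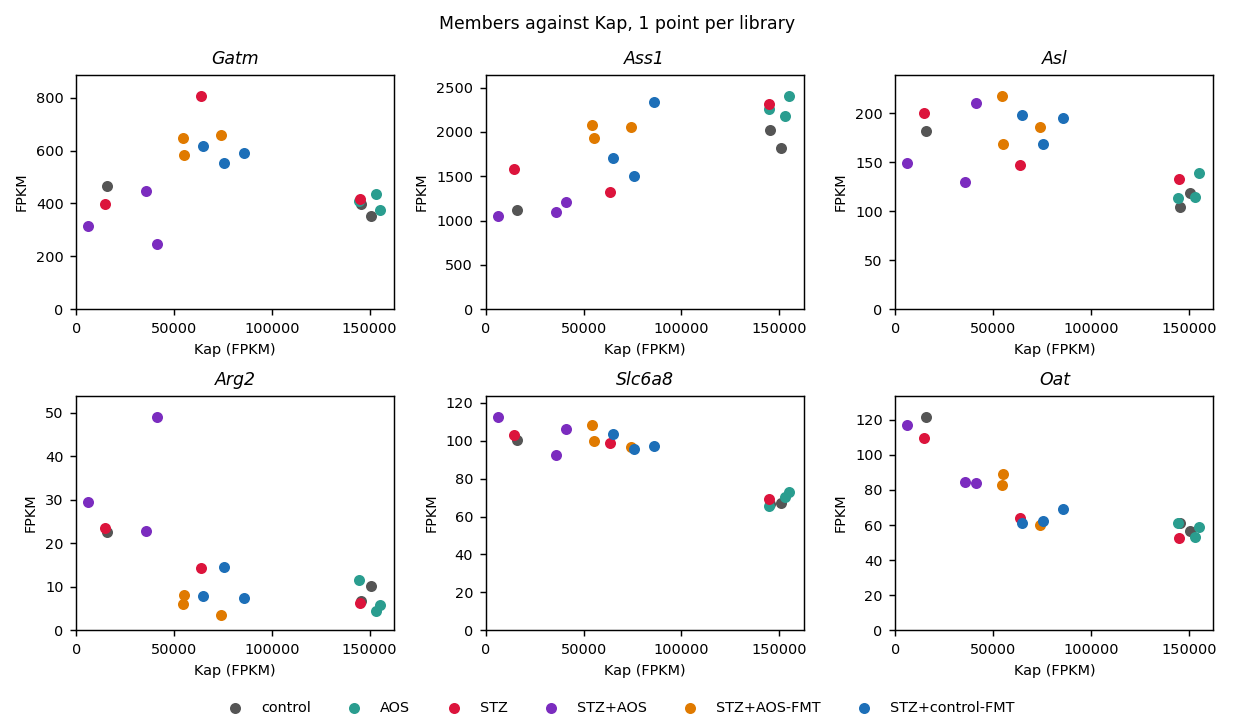
Level of each gene (vertical axis, FPKM) against Kap (horizontal axis, FPKM), with 1 point per library coloured by group. The 6 libraries with Kap at 144521 FPKM or higher hold the 6 lowest Slc6a8 values, 65.6 to 73.0 FPKM.

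No member passed the threshold (adjusted p of 0.05, Benjamini-Hochberg over all 12682 genes, limma on log2(FPKM + 1)) in any of the 8 comparisons set by the design, though 9 of those 48 tests had an unadjusted p under 0.05. Few genes passed in most of them, namely 0.0% for STZ against control, 0.071% for AOS against control, 0.11% for STZ+AOS-FMT against STZ, 0.103% for STZ+control-FMT against STZ, 0.0% for the transfer groups against each other and 0.0% for the interaction of AOS with STZ. Of the 9 tests, 3 were in STZ+AOS against STZ, 2 in the interaction and 2 in the 4 STZ groups against the 2 without. The unadjusted p was under 0.05 there for 4200, 4240 and 3584 of all 12682 genes (limma). AOS against control and STZ+AOS-FMT against STZ gave 1 test each, beside 521 and 479 of all genes. For STZ against control the log2 differences ran from -0.07 for Oat to 0.34 ± 0.24 (SE) for Gatm, the groups overlapped in all 6 genes (3.23% of all genes did not overlap), and no unadjusted p was under 0.05. With control 3 and STZ 1 left out, Slc6a8 was called in that comparison (0.58, adjusted p = 0.00501, limma), as 1 of 1105 genes. Both libraries were chosen for standing apart in these data, so that value is a description and no independent support. For AOS against control, Ass1 alone of the 6 had an unadjusted p under 0.05 (0.51 ± 0.22, adjusted p = 0.817, limma) and groups that did not overlap, as was the case for 13.1% of genes. The other differences there ran from -0.70 ± 0.49 for Arg2 to 0.01 for Gatm. The 2 transfer groups differed by -0.65 ± 0.49 for Arg2 to 0.24 ± 0.28 for Oat on the log2 scale, and all 6 genes overlapped between them (11.2% of all genes did not). Against STZ, the largest difference of STZ+AOS-FMT was that of Arg2 (-1.07 ± 0.49, adjusted p = 0.9995, limma), and no member's groups were apart, beside 8.4% of all genes. STZ+control-FMT differed from STZ by -0.42 ± 0.49 for Arg2 to 0.25 ± 0.21 for Asl, again with overlap in all 6 genes, beside 6.42% of all genes without.

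STZ+AOS against STZ asks how AOS given with STZ compares with STZ alone, and 4.53% of all genes were called there. Of the 6 genes, Gatm differed by -0.65 ± 0.24 (adjusted p = 0.0870), Ass1 by -0.59 ± 0.22 (adjusted p = 0.0923) and Arg2 by 1.24 ± 0.49 (adjusted p = 0.104, limma). Their unadjusted p-values were under 0.05 and none passed after adjustment. Ass1 was the only one of the 6 whose groups did not overlap, and 24.3% of all genes did not overlap. Calls depended on single libraries and on scaling. Without STZ 3, Gatm (adjusted p = 0.0302) and Arg2 (adjusted p = 0.0348, limma) were called. Gatm was also called without STZ+AOS 2, and after median-of-ratios rescaling, which sets libraries to one typical level across genes (-0.88, adjusted p = 0.0391, limma). Over all libraries left out in turn, the adjusted p reached 0.262 for Gatm and 0.429 for Arg2 (limma). The count of all genes called in this comparison then ran from 11 to 3349. The 9 adrenal cortex markers summed to 126 to 2566 FPKM in STZ+AOS against 3.03 to 62.8 in STZ, the 4 injured tubule markers to 175 to 1324 against 9.72 to 134, and the 4 endothelium markers to 111 to 142 against 60.9 to 94.4. With the 3 libraries above 100 FPKM of Cyp11b1 left out, which leaves STZ+AOS 2 alone in its group and assumes that it varies like the others, Gatm differed by -0.20 (adjusted p = 0.700) and Arg2 by 0.77 (adjusted p = 0.494, limma). The part of the injured tubule and endothelium markers was not tested. The interaction, that is how far the AOS effect differed between mice with and without STZ, was -1.10 ± 0.31 for Ass1 (adjusted p = 0.0771) and 1.95 ± 0.70 for Arg2 (adjusted p = 0.0942, limma), both past the unadjusted threshold only. Without STZ 3, Ass1 (adjusted p = 0.0330), Arg2 (adjusted p = 0.0325) and Oat (adjusted p = 0.0463, limma) were called. Over all libraries left out in turn, the count of all genes called in the interaction ran from 0 to 3044. Without the Cyp11b1 libraries, Arg2 differed by 1.01 (adjusted p = 0.570) and Ass1 by -0.87 (adjusted p = 0.449, limma).

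Over the 4 groups with STZ against the 2 without, 0.0552% of genes were called and none of the 6. Asl differed by 0.45 ± 0.13 (adjusted p = 0.114) and Slc6a8 by 0.42 ± 0.10 (adjusted p = 0.108, limma). With control 3 and STZ 1 left out, again as a description because they were chosen for standing apart, 5 of the 6 genes passed. Slc6a8 differed by 0.56 (adjusted p = 2.5e-05), Asl by 0.60 (adjusted p = 0.00173) and Arg2 by 0.79 (adjusted p = 0.0256), Oat differed by 0.43 (adjusted p = 0.0165) and Ass1 by -0.42 (adjusted p = 0.00305, limma). In that fit 5972 genes were called, against 7 with all libraries. Without the Cyp11b1 libraries, which takes out control 3 and keeps STZ 1, 4087 genes were called, among them Gatm (0.47, adjusted p = 0.0345), Asl (0.49, adjusted p = 0.0127) and Slc6a8 (0.47, adjusted p = 0.0109, limma). After median-of-ratios rescaling none of the 6 was called.

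Because the control and STZ groups each held a library apart, the other groups were also compared with each other. These 4 comparisons were chosen after the data were seen, and they share the AOS and STZ+AOS libraries. STZ+AOS against AOS sets mice with STZ beside mice without, all of which had AOS. There Ass1 fell, from 2281 ± 117 to 1121 ± 81.0 FPKM (log2 difference -1.03 ± 0.22, adjusted p = 0.00682, limma). Arg2 rose from 7.22 ± 3.73 to 33.7 ± 13.6 FPKM (2.10 ± 0.49, adjusted p = 0.00801), and Slc6a8 rose from 69.7 ± 3.78 to 104 ± 10.3 FPKM (0.56 ± 0.16, adjusted p = 0.0130, limma). The synthetic enzyme that joins citrulline to aspartate was thus lower, and mitochondrial arginase and the creatine transporter higher, in 3 of 3 libraries each. These 3 of 6 genes stand beside 46.5% of all genes called in this comparison, so the share of called genes among the 6 is near the background.

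Oat differed by 0.70 ± 0.28 (adjusted p = 0.0537, limma), with no overlap between the groups. It was called when only these groups were fitted (adjusted p = 0.0139, limma), a fit that called 5275 genes. With 1 library left out its adjusted p ran from 0.0610 to 0.181 (limma), never under the threshold. With Oat and the 3 called genes, 4 of the 6 did not overlap, beside 59.4% of all genes. Asl differed by 0.39 ± 0.21 (adjusted p = 0.140) and Gatm by -0.32 ± 0.24 (adjusted p = 0.267, limma), and both overlapped. The median of all genes was itself shifted by 0.29 in this comparison. After median-of-ratios rescaling, which removes that shift, Slc6a8 differed by 0.21 and was no longer called (adjusted p = 0.134), whereas Gatm differed by -0.67 and was called (adjusted p = 0.0360, limma). Relative to that shift, the differences of Ass1 and Arg2 under the same rescaling were -1.38 (adjusted p = 0.00676) and 1.77 (adjusted p = 0.0112, limma).

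Markers of other cells moved with this comparison. The 9 adrenal cortex markers summed to 126 to 2566 FPKM in STZ+AOS and 3.21 to 5.64 in AOS, where Nr5a1 was at 0. The 5 adrenal medulla markers summed to 7.84 to 167 FPKM against 0.04 to 0.16, with Th, Dbh and Pnmt at 0 in AOS. The 4 injured tubule markers summed to 175 to 1324 FPKM against 8.78 to 11.1, and the 14 proximal tubule markers to 3640 to 6316 FPKM against 11130 to 12650. With the 3 libraries above 100 FPKM of Cyp11b1 left out, which leaves STZ+AOS 2 alone in its group and assumes that it varies like the others, Ass1 differed by -1.05 and was still called (adjusted p = 0.0461, limma). Arg2 then differed by 1.62 (adjusted p = 0.0861) and Slc6a8 by 0.41 (adjusted p = 0.0970), neither called, and Gatm turned to 0.14 (adjusted p = 0.723, limma). The part of the tubule markers in these differences was not tested.

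STZ+AOS-FMT against STZ+AOS sets the transfer beside direct AOS in mice that all had STZ. Gatm was higher with the transfer, 630 ± 41.7 against 335 ± 102 FPKM (0.95 ± 0.24, adjusted p = 0.0252), and Ass1 was higher, 2022 ± 81.3 against 1121 ± 81.0 FPKM (0.85 ± 0.22, adjusted p = 0.0287, limma). Arg2 was lower, 5.90 ± 2.29 against 33.7 ± 13.6 FPKM (-2.32 ± 0.49, adjusted p = 0.0184, limma). The enzymes of argininosuccinate and guanidinoacetate synthesis were thus higher in 3 of 3 transfer libraries than in any STZ+AOS library, and arginase lower. These 3 of 6 genes compare with 15.1% of all genes called. The groups of 42.7% of all genes did not overlap, so the share without overlap among the 6 is near the background. Asl (0.25 ± 0.21), Oat (-0.30 ± 0.28) and Slc6a8 (-0.03 ± 0.16) were not called, and Slc6a8 turned to 0.18 under median-of-ratios rescaling.

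These calls depended on single libraries. All 3 were lost when STZ+AOS 1, STZ+AOS-FMT 2 or STZ+AOS-FMT 3 was left out, Gatm was also lost without STZ+AOS 3 and Ass1 without STZ+AOS-FMT 1, and the highest adjusted p over the libraries left out was 0.0989 for Gatm, 0.106 for Ass1 and 0.0863 for Arg2 (limma). Without the 3 libraries above 100 FPKM of Cyp11b1, the differences were 0.49 for Gatm (adjusted p = 0.331), 0.88 for Ass1 (adjusted p = 0.169) and -1.84 for Arg2 (adjusted p = 0.196, limma). The adrenal cortex markers summed to 2.55 to 5.26 FPKM in STZ+AOS-FMT, with Nr5a1 at 0, the injured tubule markers to 32.0 to 42.9 FPKM and the proximal tubule markers to 8473 to 9756 FPKM.

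STZ+control-FMT against STZ+AOS gave differences of the same sign for these 3 genes, and shares the STZ+AOS libraries with the comparison before it. Gatm differed by 0.85 ± 0.24 (adjusted p = 0.0516), Ass1 by 0.70 ± 0.22 (adjusted p = 0.0684) and Arg2 by -1.67 ± 0.49 (adjusted p = 0.0600, limma). None of the 6 was called, beside 4.47% of all genes, and 3 had an unadjusted p under 0.05. With Oat (-0.54 ± 0.28, adjusted p = 0.195, limma), 4 of the 6 did not overlap, beside 39.7% of all genes.

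The 2 transfer groups differ from AOS by STZ and by the transfer, and STZ+control-FMT carries no AOS label. The parts of STZ, transfer and AOS in this comparison cannot be told apart. No library stood apart from its group in Kap here. Gatm, Asl and Slc6a8 were higher in all 6 transfer libraries than in any AOS library, with differences of 0.58 ± 0.20 (adjusted p = 0.284), 0.62 ± 0.18 (adjusted p = 0.251) and 0.52 ± 0.14 (adjusted p = 0.224, limma). None was called, beside 0.0158% of all genes, and the groups of 24.8% of all genes did not overlap. When only these 3 groups were fitted, 2673 genes passed, and the adjusted p-values were 0.000809 for Gatm, 0.00346 for Asl and 0.000712 for Slc6a8 (limma). Ass1 differed by -0.25 ± 0.19, Oat by 0.28 ± 0.24 and Arg2 by 0.11 ± 0.43, and Arg2 turned negative under 5 of the alternatives tried.

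**Figure D3:**
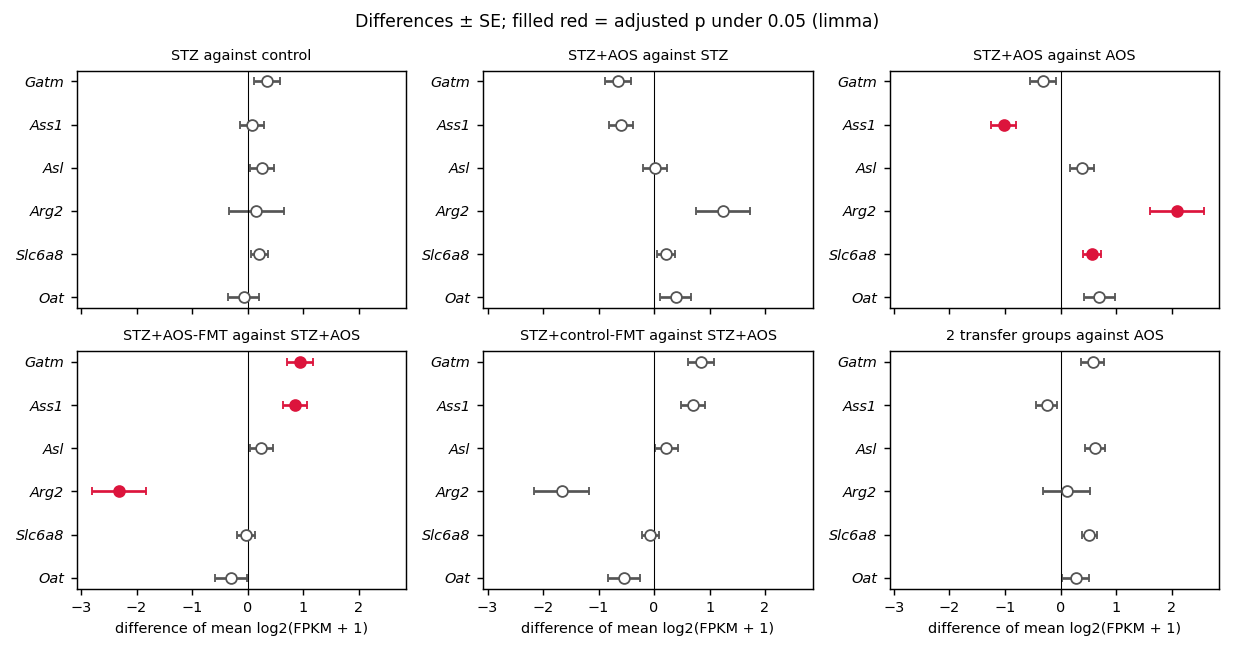
Difference of mean log2(FPKM + 1) for each gene (horizontal axis) ± SE in 6 comparisons, with filled red points where the adjusted p was under 0.05. Ass1 and Arg2 take opposite sides in STZ+AOS against AOS (-1.03 and 2.10) and in STZ+AOS-FMT against STZ+AOS (0.85 and -2.32).

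Of 54 further genes of arginine, creatine, ornithine, proline, polyamine and glycine metabolism, 44 passed the filter and none was called (limma) in STZ against control, in AOS against control, in either transfer group against STZ or in the interaction. The unadjusted p was under 0.05 for 0, 3, 4 (STZ+AOS-FMT), 0 (STZ+control-FMT) and 16 of the 44 in those comparisons. In the same order it was under 0.05 for 161, 521, 479, 281 and 4240 of all 12682 genes (limma). The urea cycle genes Cps1, Otc, Nags and Arg1 were among the 10 left out, all of which stayed under 1 FPKM in every library. In STZ+AOS against AOS, 13 of the 44 were higher and 11 lower, beside 39.3% and 7.18% of all genes. In STZ+AOS-FMT against STZ+AOS, 11 were higher and 4 lower, beside 3.99% and 11.1%. STZ+control-FMT against STZ+AOS gave 4 higher and 2 lower, beside 1.36% and 3.11%, and STZ+AOS against STZ gave 1 higher and 3 lower, beside 3.44% and 1.1%. The split by direction depended on scaling. After median-of-ratios rescaling, STZ+AOS against AOS called 1722 genes higher and 2499 lower in place of 4985 and 910, and 5 of the related genes higher and 19 lower. STZ+AOS-FMT against STZ+AOS then called 1171 higher and 705 lower in place of 506 and 1413, STZ+control-FMT against STZ+AOS 501 and 257 in place of 172 and 395, and STZ+AOS against STZ 213 and 592 in place of 436 and 139. No related gene called in these 4 comparisons changed sign under that rescaling, but 8 of the 24 called in STZ+AOS against AOS were no longer called, all 8 of them higher ones (Ckb, Ddah2, Azin2, Sat1, Paox, Slc3a2, Gldc and Phgdh). STZ+AOS-FMT against STZ+AOS kept 13 of 15, losing Prmt1 (adjusted p = 0.0608) and Aldh18a1 (adjusted p = 0.0544, limma), and the other 2 comparisons kept 6 of 6 and 4 of 4. Quantile normalization kept 15 of 24 calls in STZ+AOS against AOS, 10 of 15 in STZ+AOS-FMT against STZ+AOS, 3 of 6 in STZ+control-FMT against STZ+AOS and 0 of 4 in STZ+AOS against STZ. Without the 3 libraries above 100 FPKM of Cyp11b1, the calls that remained were 4 in STZ+AOS against AOS (Agxt2, lower, and Prmt1, Aldh18a1 and Phgdh, higher) and 0 in the other 3 comparisons.

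Among genes of the creatine and citrulline steps, Gamt, which methylates guanidinoacetate, fell from 21.4 ± 1.86 FPKM with AOS to 15.0 ± 3.11 FPKM with STZ+AOS (-0.51, adjusted p = 0.0451, limma) and stood at 24.8 ± 4.42 FPKM with STZ+AOS-FMT (0.70 against STZ+AOS, adjusted p = 0.0339, limma). Slc16a12, a creatine carrier of the plasma membrane, was higher with STZ+AOS-FMT (40.9 ± 4.27 FPKM) than with STZ+AOS (24.9 ± 3.08 FPKM), and was also called in STZ+control-FMT against STZ+AOS (0.41). The mitochondrial ornithine carrier Slc25a15 fell by 0.56 on the log2 scale in STZ+AOS against AOS, and brain-type creatine kinase, Ckb, rose by 1.00. The Gatm to Gamt ratio of levels was 16.2 to 22.3 with AOS and 19.6 to 25.6 with STZ+AOS, and these ranges overlapped.

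Genes listed under arginine use included Agxt2, a mitochondrial aminotransferase that also acts on methylated arginines. Agxt2 fell from 53.3 ± 6.74 to 23.8 ± 6.81 FPKM in STZ+AOS against AOS (-1.16, adjusted p = 0.00590, limma). Ddah1, which breaks down asymmetric dimethylarginine, fell from 130.4 ± 11.0 to 72.4 ± 11.5 FPKM (-0.85, adjusted p = 0.00680, limma). The endothelial nitric oxide synthase Nos3 (0.81), the arginine methyltransferase Prmt1 (0.77), the antizyme inhibitor Azin2 (0.93) and the Ddah1 relative Ddah2 (0.60) were higher. Nos3 was low, at 1.42, 1.42 and 1.3 FPKM with AOS and 3.78, 2.43 and 3.44 FPKM with STZ+AOS. Nos3, Azin2 and Ddah2 were not called in STZ+AOS against AOS under quantile normalization. Agxt2 (0.98) and Ddah1 (0.64) were higher, and Nos3 (-0.68) and Prmt1 (-0.57) lower, in STZ+AOS-FMT against STZ+AOS. Agxt2 (-0.81) and Nos3 (0.82) were also called in STZ+AOS against STZ, and Agxt2 (0.95) and Nos3 (-0.67) in STZ+control-FMT against STZ+AOS. Under quantile normalization neither was called in STZ+AOS against STZ (adjusted p = 0.0537 for Agxt2 and 0.0864 for Nos3, limma), and Nos3 was not called in either transfer group against STZ+AOS. Beside Nos3, the 4 endothelium markers summed to 111 to 142 FPKM in STZ+AOS against 56.8 to 72.5 in AOS, the 4 podocyte markers to 85.3 to 93.8 against 38.7 to 47.1, and the 4 fibroblast markers to 114 to 149 against 42.6 to 60.2, and the part of these markers was not tested.

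Among genes that take up ornithine's further fate, Odc1, the first enzyme of polyamine synthesis, fell from 896 ± 219 to 269.6 ± 96.4 FPKM in STZ+AOS against AOS (-1.76, adjusted p = 0.0261, limma). Spermine synthase, Sms, fell by 0.51 on the log2 scale, and the catabolic enzymes Sat1 (0.58), Smox (0.91) and Paox (0.62) rose. The median of all genes was itself shifted by 0.29 there. After median-of-ratios rescaling Sat1 (0.22) and Paox (0.32) were no longer called. With quantile normalization Smox (0.49) and Paox (0.21) were not called. Srm and Amd1 of the same list were not called. On the proline side Aldh4a1, which ends proline breakdown in glutamate (-0.86), and the pyrroline carboxylate reductase Pycrl (-0.40) fell, and Aldh18a1, which starts proline synthesis from glutamate, rose (0.85). Aldh18a1 was low, at 0.42, 0.38 and 0.76 FPKM with AOS and 2.7, 1.64 and 1.05 FPKM with STZ+AOS. Its call was lost under quantile normalization (adjusted p = 0.068, limma). STZ+AOS-FMT against STZ+AOS gave 3 higher (the hydroxyproline dehydrogenase Prodh2, 0.95, Sms, 0.62, and Pycrl, 0.40) and 1 lower (Aldh18a1, -0.68), and Odc1 was not called there. Pycrl was also lower in STZ+AOS against STZ (-0.46).

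Among carriers of cationic amino acids, Slc7a1, the plasma membrane importer of arginine, rose from 0.84 ± 0.24 to 4.23 ± 1.62 FPKM in STZ+AOS against AOS (1.46, adjusted p = 0.00617, limma), a low level on which the pseudocount shrinks the difference. Slc3a2 (0.68) rose too, and Slc3a1, the heavy chain of the apical cystine and dibasic amino acid exchanger, fell (-0.58). Slc7a1 was lower (-1.26) and Slc3a1 higher (0.47) in STZ+AOS-FMT against STZ+AOS, Slc7a1 was lower in STZ+control-FMT against STZ+AOS (-1.09), and Slc3a1 was lower in STZ+AOS against STZ (-0.47).

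Of the glycine genes, Gldc of the glycine cleavage system (1.60) and Phgdh, which starts serine synthesis (0.99), rose in STZ+AOS against AOS. The mitochondrial serine hydroxymethyltransferase Shmt2 (-0.66) and Glyat, which joins glycine to acyl groups (-0.44), fell. Shmt2 (0.79), Glyat (0.72) and Gcsh, the carrier protein of glycine cleavage (0.92), were higher in STZ+AOS-FMT against STZ+AOS. Shmt2 (0.69) and Glyat (0.67) were higher in STZ+control-FMT against STZ+AOS too.

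Each list was also set beside the median of all tested genes, which was 0.29 for STZ+AOS against AOS and -0.17 for STZ+AOS-FMT against STZ+AOS. In the first comparison the list medians ran from -0.31 for the 2 tested urea cycle and citrulline genes to 0.60 for the 7 tested genes listed under arginine use, Azin2 among them. In the second they ran from -0.11 for arginine use to 0.40 for the urea cycle and citrulline genes.

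**Figure D4:**
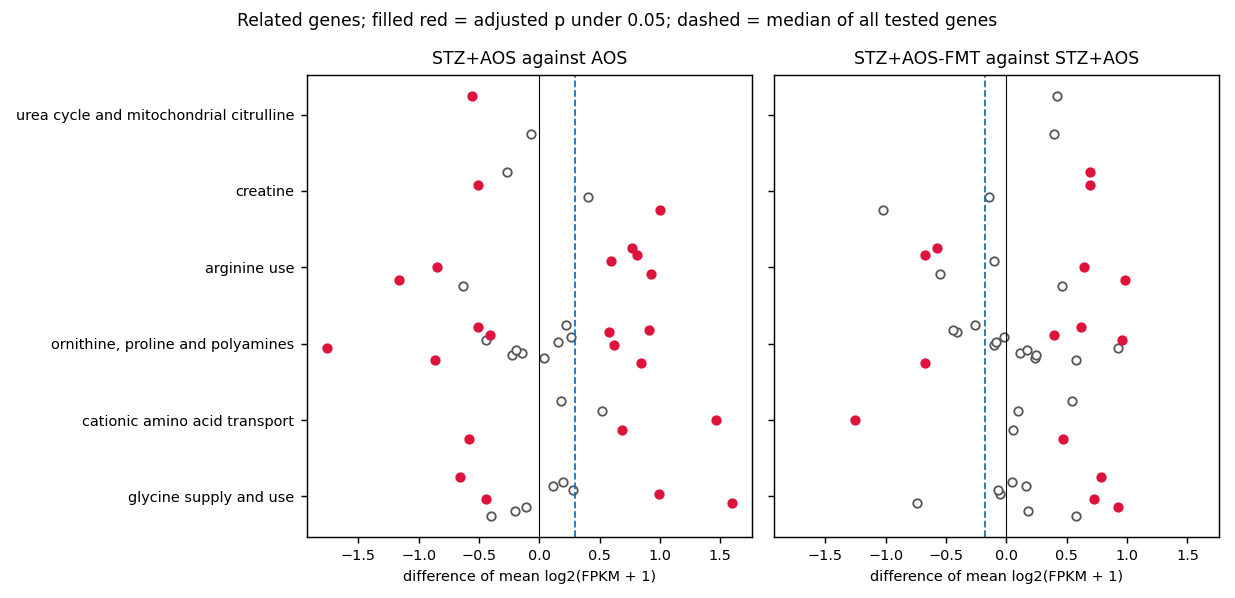
Difference of mean log2(FPKM + 1) (horizontal axis) of 44 related genes by list (vertical axis) in 2 comparisons, 1 point per gene, filled red where the adjusted p was under 0.05. The dashed line marks the median of all tested genes, 0.29 in STZ+AOS against AOS and -0.17 in STZ+AOS-FMT against STZ+AOS. The 3 glycine genes called in the latter all lie above 0.

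By Pearson correlation of log2(FPKM + 1) over the 18 libraries, among 8319 genes with a mean of at least 5 FPKM, the 3 genes most like Ass1 were Ces1e (r = 0.96), Slc22a18 and Tmem150a. Those most like Gatm were Slc34a3, a sodium phosphate cotransporter (r = 0.91), Car12 and Scoc, and those most like Asl were Slc7a9, the light chain of the cystine exchanger (r = 0.92), Abcd4 and Nox4. Slc6a8 was most like Fbxo21 (r = 0.97), Nkiras2 and Cnn3, Arg2 most like Gramd1b (r = 0.95), Ppp1r2 and Ifngr1, and Oat most like Mknk1 (r = 0.94), Birc2 and Slc39a13. The points share the libraries and the group structure, and these values describe likeness only. After removal of the group means, 2 of the 3 genes named for Ass1 were still among its 3 most alike, 1 of 3 each for Arg2, Slc6a8 and Oat, and 0 of 3 for Gatm and Asl.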

How the data were processed

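RNA sequencing values of 18 kidney samples, 3 per group, were read from 1 deposited table of 19545 entries (19542 symbols). The values are taken as FPKM made by the authors, a unit inferred because the sum of value times gene length varied by 0.933% (coefficient of variation) over libraries and the plain sum by 5.475%. Bowtie 0.12.2 and mm10 are named per the submitters' processing notes; how reads were counted, and with which annotation and filters, is not given in the sources used here. Read totals are not given, so no counting interval was formed.

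The 12682 genes that reached 1 FPKM in 3 or more libraries were fitted as log2(FPKM + 1) by limma 3.58.1 under R 4.3.3, with all 18 libraries, a mean for each group and the trend and robust options. The fit was run on simulated data with planted changes. Those data had independent normal scatter and no library standing apart, so they cannot speak for libraries such as control 3 and STZ 1. P-values were adjusted by Benjamini-Hochberg over all 12682 genes, with a threshold of 0.05. The smallest p of an exact permutation test with 3 libraries on each side is 0.1, so none was run. Differences are log2 values on the scale of value plus 1, which understates changes of low genes. Gene bounds came from GENCODE mouse release 21, matched by symbol for 18990 symbols, and promoters from RefSeq (GRCm38.p6).

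The 6 genes, the related lists and the markers were chosen with earlier results of these data known. All 6 genes are named in every comparison, and a related gene is named where it passed. Replicate numbers of the titles were not used as pairs, since in no comparison did every same-numbered pair of libraries deviate together (correlation over 0.1). In STZ against control the correlations were 0.54, -0.16 and 0.67 for numbers 1, 2 and 3. With 3 libraries a group this rule cannot exclude a pairing or a shared batch. The settings varied were the scaling (quantile, median-of-ratios, and a total without Kap), the filter (none, or a mean of 5 FPKM), the pseudocount (0.1 and 5), limma without trend and robust options, weights for each library, a fit of the groups compared only, a replicate block, each library left out, and either control 3 with STZ 1 or every library over 100 FPKM of Cyp11b1 left out.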

Additional observations from a re-analysis of the deposited data

How the results depend on the processing

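Limits come first. Read depth is unknown, each group has 3 libraries, and control 3, STZ 1 and the libraries with adrenal transcripts carry weight in most comparisons. The differences of the 6 genes and the highest likeness of each were read again under other settings. A difference counts as kept when its direction and side of the threshold stayed. For a highest likeness, kept means only that r stayed close, whichever gene gave it. Under settings other than leaving out 1 library, 862 values were kept, 40 passed the threshold, 6 lost it and 34 changed sign. With 1 library left out these numbers were 504, 13, 11 and 30. No value that changed sign was called in either direction. The cause was not tested. The weights for each library came from a fit that gave a warning of non-convergence.

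Counts of all genes called moved by more than 1.5 times as follows. For STZ against control (0 genes) they were 1 with quantile normalization, 7 with no filter, 2 with only the groups compared and 1105 without control 3 and STZ 1. For AOS against control (9) they were 4 with quantile normalization, 40 with no filter, 0 with a mean of at least 5 FPKM, 1 with a pseudocount of 5, 27 with weights, 5 with only the groups compared and 4 without the libraries with Cyp11b1 above 100 FPKM. For STZ+AOS against STZ (575) they were 128 with quantile normalization, 1338 scaled without Kap, 1126 with no filter, 339 with a mean of at least 5 FPKM, 242 and 952 with pseudocounts of 0.1 and 5, 9 with weights, 0 with only the groups compared, 20 without control 3 and STZ 1 and 10 without the Cyp11b1 libraries. For STZ+AOS-FMT against STZ (14) and STZ+control-FMT against STZ (13) they were 179 and 163 with no filter, and 0 in both with a mean of at least 5 FPKM or only the groups compared. The interaction (0) gave 3 with no filter and 1 with a mean of at least 5 FPKM. For the 4 STZ groups against the 2 without (7) they were 3 with quantile normalization, 3 with median-of-ratios rescaling, 6122 with weights, 5972 without control 3 and STZ 1 and 4087 without the Cyp11b1 libraries.

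For STZ+AOS against AOS (5895) the counts were 3358 with quantile normalization, 3867 with a mean of at least 5 FPKM and 746 without the Cyp11b1 libraries. For STZ+AOS-FMT against STZ+AOS (1919) they were 3402 with weights, 1138 with only the groups compared, 4289 without control 3 and STZ 1 and 6 without the Cyp11b1 libraries. For STZ+control-FMT against STZ+AOS (567) they were 922 scaled without Kap, 892 with a pseudocount of 5, 2586 with weights, 2 with only the groups compared, 3428 without control 3 and STZ 1 and 6 without the Cyp11b1 libraries. For the 2 transfer groups against AOS (2) they were 0 under each of the 3 scalings and both pseudocounts, 1 with no filter, 4113 with weights, 2673 with only the groups compared, 805 without control 3 and STZ 1 and 73 without the Cyp11b1 libraries.

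With 1 library left out, the counts ran from 0 to 0 for STZ against control and for the transfer groups against each other, 4 to 7 for AOS against control, 11 to 3349 for STZ+AOS against STZ, 8 to 14 for STZ+AOS-FMT against STZ and 7 to 12 for STZ+control-FMT against STZ. They ran from 0 to 3044 for the interaction, 1 to 4244 for the 4 STZ groups, 3507 to 5762 for STZ+AOS against AOS, 42 to 2142 for STZ+AOS-FMT against STZ+AOS, 0 to 1389 for STZ+control-FMT against STZ+AOS and 0 to 3 for the 2 transfer groups.

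Whether the replicate numbers mark pairs or batches is not known. A fit with the replicate number as a block gave 1116 genes for STZ+AOS against STZ, 11 for the 4 STZ groups, 1115 for STZ+control-FMT against STZ+AOS and 0 for the 2 transfer groups. It gave 5996 for STZ+AOS against AOS, 2203 for STZ+AOS-FMT against STZ+AOS, 6 for AOS against control, 13 for each transfer group against STZ and 0 for the others.

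Sign changes of log2 differences were these. Median-of-ratios rescaling gave Asl 0.017 (AOS against control), -0.21 (STZ+AOS against STZ) and -0.23 (interaction), Slc6a8 -0.017 (STZ+AOS against STZ), 0.18 (STZ+AOS-FMT against STZ+AOS) and 0.14 (STZ+control-FMT against STZ+AOS), and Arg2 -0.0195 (transfer groups against AOS), where quantile normalization gave -0.042. Weights gave Ass1 -0.10 and Oat 0.31 (STZ against control), Asl 0.14 and Slc6a8 0.031 (AOS against control), Asl -0.21 (STZ+AOS against STZ) and -0.35 (interaction), and Slc6a8 0.067 and 0.032 (STZ+AOS-FMT and STZ+control-FMT against STZ+AOS). Without control 3 and STZ 1 the values were Ass1 -0.41 and Oat 0.50 (STZ against control), Asl 0.13 and Slc6a8 0.052 (AOS against control), Asl -0.10 (STZ+AOS against STZ), Oat -0.13 (STZ+AOS-FMT against STZ), Slc6a8 -0.030 (STZ+control-FMT against STZ), and Asl -0.23 and Slc6a8 -0.018 (interaction). Without the Cyp11b1 libraries they were Ass1 -0.18 and Oat 0.28 (STZ against control), Asl 0.13 and Slc6a8 0.052 (AOS against control), Asl -0.28 (STZ+AOS against STZ) and -0.41 (interaction), Gatm 0.14 (STZ+AOS against AOS), and Slc6a8 0.13 and 0.095 (STZ+AOS-FMT and STZ+control-FMT against STZ+AOS).

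With 1 library left out, differences that changed sign ran for Arg2 from -0.25 to 0.62, Ass1 from -0.18 to 0.26 and Oat from -0.37 to 0.28 in STZ against control, for Asl from -0.27 to 0.13, Gatm from -0.088 to 0.12 and Slc6a8 from -0.24 to 0.052 in AOS against control, for Asl from -0.18 to 0.19 in STZ+AOS against STZ, and for Oat from -0.13 to 0.39 in STZ+AOS-FMT against STZ. They ran for Ass1 from -0.077 to 0.33, Oat from -0.37 to 0.15 and Slc6a8 from -0.03 to 0.25 in STZ+control-FMT against STZ, for Asl from -0.075 to 0.11 and Slc6a8 from -0.0086 to 0.073 in STZ+AOS-FMT against STZ+control-FMT, for Asl from -0.11 to 0.30 in the interaction, and for Slc6a8 from -0.11 to 0.034 in STZ+AOS-FMT against STZ+AOS. They ran for Arg2 from -0.14 to 0.45 in the 2 transfer groups against AOS.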
